A study of Mus musculus with 6 samples.

Results

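The RNA levels of 8 genes of calcineurin signalling were followed in cultured embryonic mouse cortical cells with and without knockdown of Ybx1, an RNA-binding protein that reads the m5C mark on RNA. They are the 3 Rcan genes (Rcan1, Rcan2 and Rcan3), 3 genes for subunits of calcineurin (Ppp3ca, Ppp3cb and Ppp3r1) and 2 genes for NFAT transcription factors (Nfatc3 and Nfatc4). They were chosen by symbol from a table of 17920 genes, of which 13669 had enough reads to be tested, and all 8 were among the latter. The choice was made with the fall of Rcan2 in these same libraries already known. The question was whether that fall is shared by Rcan1, Rcan3 and the phosphatase, so the values of the 8 genes in this contrast are given as a description, with no P value. Where a gene of the 8 is said to be past the threshold, that gives its place in the fit over all genes and supports nothing further.

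There were 3 libraries per group. The group labelled WT held cells infected with a lentivirus carrying a control shRNA, and the group labelled KD held cells infected with a lentivirus carrying shRNA against Ybx1. Both groups came from cortices of E13.5 embryos, were dissociated and cultured, and had puromycin for selection of infected cells. By the sample labels the tissue is brain, and the design text calls the loss of Ybx1 a deletion, but the methods describe this knockdown in culture. Replicates were separate experiments by those methods, and the sources used here tie no strain to these cultures.

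Calcineurin is a phosphatase that calcium and calmodulin switch on. It joins a catalytic subunit (Ppp3ca, Ppp3cb or Ppp3cc) to a calcium-binding regulatory subunit (Ppp3r1 in most tissues, Ppp3r2 in testis). It removes phosphates from NFAT proteins, which then enter the nucleus and bind DNA with the core GGAAA, and kinases such as Gsk3b and Dyrk1a work in the opposite direction. Rcan proteins bind calcineurin and can hold back its activity. In the brain, calcineurin acts in synaptic plasticity, and NFAT proteins in the outgrowth of axons.

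The knockdown was seen in every KD library. Ybx1 stood at 618, 615 and 653 normalised counts (CPM, on a scale of 1000000 per library) in WT and at 98.3, 92.2 and 159 CPM in KD, which left 18.5% of the WT mean. Library totals lay between 16294635 and 16497505 estimated counts. By defining markers the cultures were neural. The neuronal tubulin gene Tubb3 averaged 1798 ± 212 TPM (a level per length of transcript, summing to 1000000 per library; SD, n = 3) in WT and 1792 ± 181 in KD. Endothelial Cldn5 averaged 0.037 and 0.00 TPM, and microglial Aif1 averaged 0.973 and 1.04 TPM.

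The sequences before the start sites are shown first, because the 3 Rcan genes moved unequally and because Rcan1 has an internal start that is a known NFAT target. RefSeq windows of build GRCm38.p6 gave 250 bases before each start for 7 of the 8 genes, 11 windows in all, and Ppp3ca had none. Bases that the annotation places in an exon were left off, so 4 of the windows below are shorter. Both strands were searched for the NFAT core GGAAA, the CCAAT box, whose inverted form, the Y box, gave the family of Ybx1 its name, and TGACG, a core of the site bound by CREB. Each is written 5′ to 3′ along the strand of its gene, and capitals mark matches on either strand.
Rcan1, upstream start (chr16:92466170-92466419, minus strand): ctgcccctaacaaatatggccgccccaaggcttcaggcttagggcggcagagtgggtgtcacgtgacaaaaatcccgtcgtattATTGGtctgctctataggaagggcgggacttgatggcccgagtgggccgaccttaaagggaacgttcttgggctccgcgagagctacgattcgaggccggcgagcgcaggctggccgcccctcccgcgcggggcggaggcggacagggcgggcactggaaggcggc
Rcan1, internal start (chr16:92400079-92400328, minus strand): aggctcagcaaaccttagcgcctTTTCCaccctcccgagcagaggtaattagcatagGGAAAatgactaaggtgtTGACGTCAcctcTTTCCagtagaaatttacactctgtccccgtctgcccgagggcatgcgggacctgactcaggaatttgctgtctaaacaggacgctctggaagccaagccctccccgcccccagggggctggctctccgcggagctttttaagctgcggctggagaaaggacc
Rcan2, first start (chr17:43801102-43801350, plus strand): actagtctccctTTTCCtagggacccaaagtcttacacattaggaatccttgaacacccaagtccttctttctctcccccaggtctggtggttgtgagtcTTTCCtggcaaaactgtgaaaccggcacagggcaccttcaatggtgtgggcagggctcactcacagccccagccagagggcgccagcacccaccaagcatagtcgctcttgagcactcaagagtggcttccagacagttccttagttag
Rcan2, second start (chr17:43801667-43801843, plus strand): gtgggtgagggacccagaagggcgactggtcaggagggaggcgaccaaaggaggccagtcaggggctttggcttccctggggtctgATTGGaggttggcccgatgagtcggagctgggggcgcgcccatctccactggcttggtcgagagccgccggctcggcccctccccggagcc
Rcan2, internal start (chr17:43952749-43952998, plus strand): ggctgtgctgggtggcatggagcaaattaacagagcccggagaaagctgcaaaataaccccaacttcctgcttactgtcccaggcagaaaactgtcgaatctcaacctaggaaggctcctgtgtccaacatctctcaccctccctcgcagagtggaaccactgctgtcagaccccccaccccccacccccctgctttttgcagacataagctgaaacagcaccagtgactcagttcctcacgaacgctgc
Rcan3 (chr4:135433854-135434055, minus strand): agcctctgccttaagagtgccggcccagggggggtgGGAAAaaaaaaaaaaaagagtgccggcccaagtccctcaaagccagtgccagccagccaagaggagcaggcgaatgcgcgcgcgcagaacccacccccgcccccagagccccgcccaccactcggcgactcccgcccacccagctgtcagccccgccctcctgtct
Ppp3r1 (chr11:17159048-17159262, plus strand): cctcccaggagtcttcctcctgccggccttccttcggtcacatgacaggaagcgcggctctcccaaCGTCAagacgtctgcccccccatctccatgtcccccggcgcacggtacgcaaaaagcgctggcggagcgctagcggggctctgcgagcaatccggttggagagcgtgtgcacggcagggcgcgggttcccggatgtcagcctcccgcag

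GGAAA was found in 55.6% of 32851 mouse windows of this length, CCAAT in 33.8% and TGACG in 17.8%. The internal Rcan1 window held 3 matches to GGAAA and 2 to TGACG, and those 2 overlap as the palindrome TGACGTCA. The upstream Rcan1 window held 1 CCAAT and no GGAAA. For Rcan2, the first window held 2 GGAAA, the second 1 CCAAT and the internal one no match. The Rcan3 window held 1 GGAAA, and that of Ppp3r1 held 1 TGACG. Of the windows not printed, that of Ppp3cb held 3 GGAAA and that of Nfatc4 3 GGAAA and 2 CCAAT, and neither gene was past the threshold below. The first Nfatc3 window held 1 GGAAA and 1 TGACG, and the second 1 CCAAT. A match is only a run of letters, and no reads in these libraries bear on binding there.

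Rcan2, the calcineurin regulator that prompted the choice, lies on chromosome 17 (chr17:43801351-44039516, plus strand, GRCm38). Its level was 62.5, 53.0 and 37.5 TPM in the WT libraries of replicates 1, 2 and 3, and 26.1, 23.7 and 19.6 TPM in those of KD. All KD libraries were below all WT libraries, and in both groups the replicate 1 library was highest and the replicate 3 library lowest. The reads behind these levels were 1542, 1296 and 890 estimated counts in WT and 626, 553 and 478 in KD. In the fit over all genes its log2 fold change was -1.19 (SE 0.18), so that KD held 43.8% of the WT normalised count.

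Rcan3 (chr4:135412308-135433853, minus strand), the third member of the family, followed in the same direction. It stood at 71.8, 63.5 and 61.3 TPM in WT and at 50.8, 49.4 and 45.7 TPM in KD. Again no library of one group reached into the other. Its log2 fold change was -0.48 (SE 0.07), and KD held 71.6% of the WT normalised count, from 1784 or more estimated counts in every library.

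Rcan1 (chr16:92391953-92470867, minus strand), the member of the family best known as a feedback inhibitor of calcineurin, gave a different picture. It stood at 80.0, 70.8 and 65.2 TPM in WT and at 75.3, 71.4 and 67.1 TPM in KD. The KD libraries lay wholly within the range of the WT libraries. Its log2 fold change was -0.07 (SE 0.08) and was 0.016 when the WT library of replicate 1 was left out. The within-pair differences of log2 CPM, KD minus WT of the same replicate number, were -0.15, -0.07 and 0.03 for Rcan1, against -1.31, -1.25 and -0.94 for Rcan2 and -0.56, -0.45 and -0.43 for Rcan3. In each of the 3 pairs Rcan2 was thus the lowest, Rcan3 next and Rcan1 nearest to 0.

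Of the calcineurin subunits, Ppp3r1 (chr11:17159263-17200375, plus strand), which encodes the regulatory subunit, moved most and upward. It stood at 131, 124 and 121 TPM in WT and at 190, 192 and 186 TPM in KD. The KD libraries were close together and far above those of WT. Its log2 fold change was 0.54 (SE 0.05), and KD held 145% of the WT normalised count. Within pairs the rise was 0.47, 0.54 and 0.61 in log2 CPM. The gene shares 462 of its 3228 annotated exon bases with Wdr92 on the same strand. Wdr92 itself had 178 to 223 estimated counts per library and a fitted difference of 0.01 (log2, SE 0.12, adjusted P = 0.952), against 2446 or more for Ppp3r1.

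Ppp3ca (chr3:136670124-136937727, plus strand), a catalytic subunit abundant in neurons, stood at 141, 143 and 168 TPM in WT and at 179, 184 and 183 TPM in KD. The groups did not overlap, and the WT library of replicate 3 lay nearest to KD. Its log2 fold change was 0.22 (SE 0.06). It was past the threshold used for all genes with every library in, and not when any one of 4 libraries was left out: 0.18 without WT replicate 1, 0.20 without WT replicate 2, 0.23 without KD replicate 2 and 0.21 without KD replicate 3.

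Ppp3cb (chr14:20499364-20546573, minus strand), the other main catalytic subunit of brain, stood at 203, 209 and 206 TPM in WT and at 209, 229 and 221 TPM in KD. The groups met at their edges, where the highest WT library (208.8) lay just under the lowest KD library (209.3) in TPM and above it in CPM. Its log2 fold change was 0.05 (SE 0.05), with within-pair differences of -0.02, 0.06 and 0.12 in log2 CPM.

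Nfatc3 (chr8:106058840-106130537, plus strand), an NFAT factor of neurons and lymphocytes, stood at 8.47, 7.78 and 8.95 TPM in WT and at 12.5, 11.2 and 9.98 TPM in KD. All KD libraries were above all WT libraries, with pair 3 the closest. The log2 fold change was 0.36 (SE 0.09), and within pairs it was 0.49, 0.44 and 0.14 in log2 CPM. It was not past the threshold without WT replicate 2 (0.32), without KD replicate 1 (0.28) or without KD replicate 2 (0.37). Of its 11726 annotated exon bases, 219 overlap Esrp2 on the opposite strand, and whether the counting used strand is not given in the sources used here.

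Nfatc4 (chr14:55823144-55833943, plus strand), an NFAT factor known from neurons and heart, was the lowest of the 8 genes. It stood at 1.28, 1.53 and 2.05 TPM in WT and at 1.47, 1.02 and 1.53 TPM in KD, from 30 to 51 estimated counts per library. The groups overlapped, and the direction differed between pairs. Its log2 fold change was -0.12 (SE 0.23), so no difference was detectable at this depth.

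**Figure D1:**
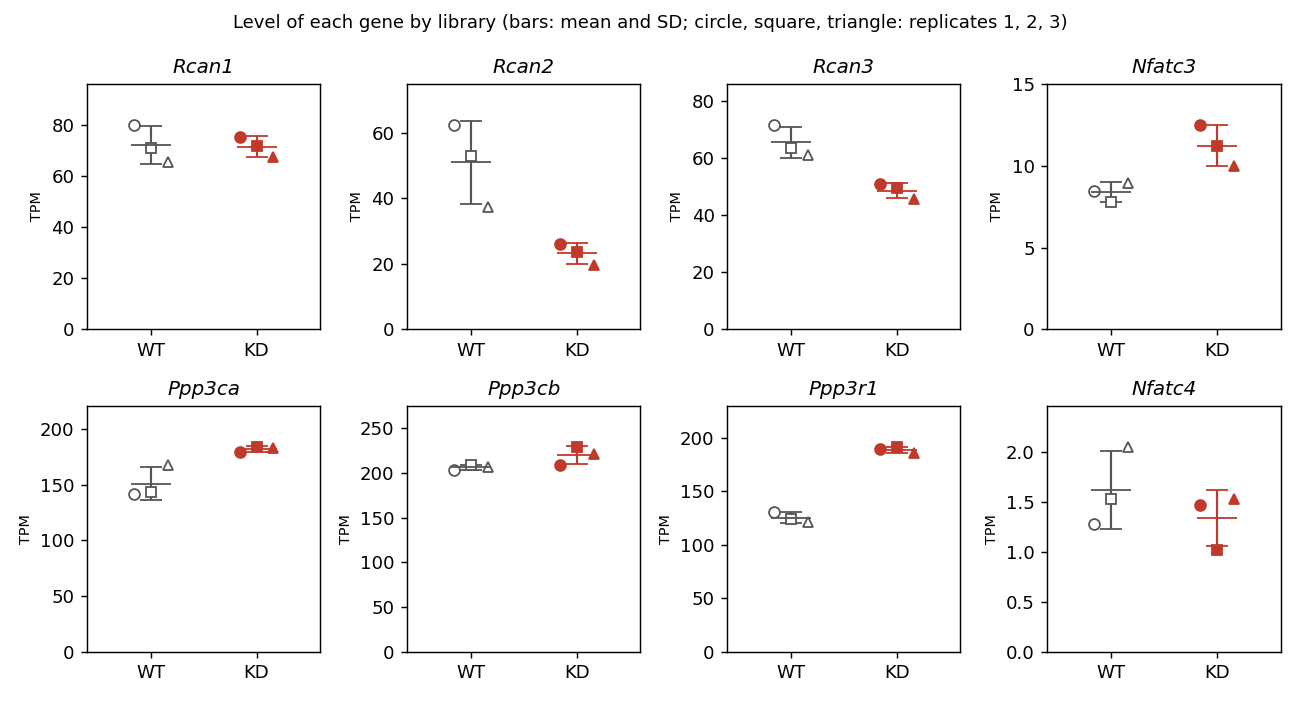
Level of each of the 8 genes in TPM (y axis, each panel from 0 on its own scale) in the 3 WT and 3 KD libraries, with the mean and SD as bars and the replicate number as the shape of the point. Rcan2 and Rcan3 were lower in every KD library, Rcan1 overlapped, and Ppp3r1, Ppp3ca and Nfatc3 were higher in every KD library. Ppp3cb was also higher in every KD library in TPM, but only just (lowest KD 209.3, highest WT 208.8), and its groups overlapped in CPM.

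Across the 8 genes, 5 were past the threshold of an adjusted P of 0.05 in the fit over all genes, 3 higher (Ppp3r1, Nfatc3 and Ppp3ca) and 2 lower (Rcan2 and Rcan3). Among all 13669 genes tested, 24.0% passed, 12% higher and 11.9% lower. The groups did not overlap in CPM for the same 5 genes and for 41.6% of all genes tested, 21.0% higher and 20.6% lower. Since the genes were chosen with this contrast known, nothing is read from these shares. The median log2 fold change was -0.007 over the 8 genes and -0.001 over all genes tested. With both replicate 2 libraries left out, leaving 2 libraries per group, 1 of the 8 genes (Ppp3r1) was past the threshold, and 135 genes higher and 93 lower of all genes, against 1646 and 1631 with every library in.

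**Figure D2:**
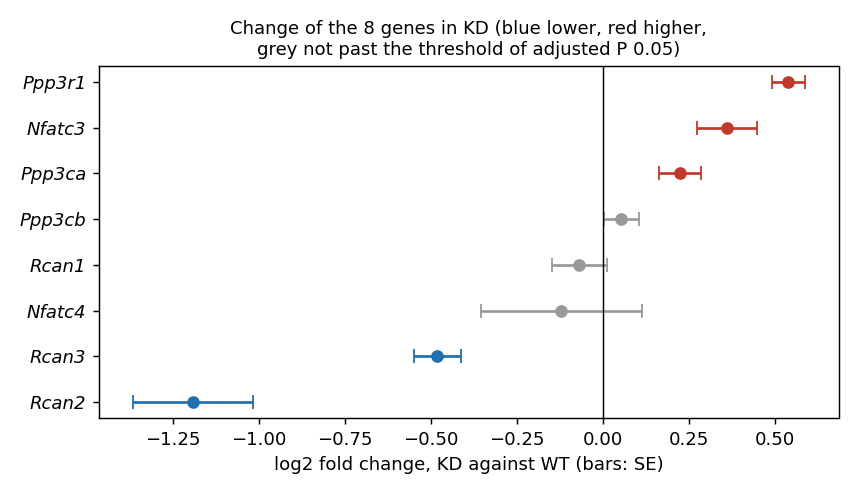
Log2 fold change of the 8 genes in KD against WT (x axis) with its SE as bars, from the edgeR fit over all genes. The values run from -1.19 for Rcan2 to 0.54 for Ppp3r1, and those of Rcan1, Ppp3cb and Nfatc4 (grey) were not past the threshold.

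Levels per length set the genes in order. In WT the order in TPM was Ppp3cb at 206 ± 2.80, Ppp3ca at 151 ± 14.9, Ppp3r1 at 125 ± 5.10, Rcan1 at 72.0 ± 7.48, Rcan3 at 65.5 ± 5.54, Rcan2 at 51.0 ± 12.6, Nfatc3 at 8.40 ± 0.588 and Nfatc4 at 1.62 ± 0.393 (SD, n = 3). The ranges over libraries overlapped for Rcan1 and Rcan3 and for Rcan3 and Rcan2, and not for the other neighbours. Within each WT library, however, Rcan1 was above Rcan3 and Rcan3 above Rcan2, and Rcan3 stood at 0.912 ± 0.0245 of the Rcan1 level (SD, n = 3). In KD the order changed at 1 place, with Ppp3r1 at 189 ± 2.85 TPM above Ppp3ca at 182 ± 2.55. The Rcan genes were spread apart in KD, at 71.3 ± 4.09 TPM for Rcan1, 48.6 ± 2.63 for Rcan3 and 23.1 ± 3.30 for Rcan2, and no neighbours in the order overlapped.

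The composition of the Rcan transcripts shifted with these values. Summed over the 3 genes, Rcan RNA was 214, 187 and 164 TPM in WT and 152, 145 and 132 TPM in KD. Rcan1 made up 38.3% ± 1.29 of the sum in WT and 49.9% ± 0.716 in KD, and Rcan2 26.8% ± 3.42 and 16.1% ± 1.21 (SD, n = 3). The share of Rcan3 was 34.9% ± 2.13 and 34.0% ± 0.592, so its fall kept pace with that of the sum. Rcan2 stood at 0.701 ± 0.111 of the Rcan1 level in WT and at 0.324 ± 0.0284 in KD.

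The catalytic subunits, Ppp3ca, Ppp3cb and Ppp3cc together, summed to 385 ± 15.9 TPM in WT and to 428 ± 13.8 TPM in KD. Ppp3r1 amounted to 0.327 ± 0.0264 of that sum in WT and 0.442 ± 0.0153 in KD, and the Rcan genes to 0.492 ± 0.0853 and 0.335 ± 0.0315. In both ratios every KD library lay outside the WT range. The share of Ppp3cc, a catalytic subunit chiefly of testis that was also read here, was 7.25% ± 0.506 of the catalytic sum in WT and 6.07% ± 0.280 in KD.

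**Figure D3:**
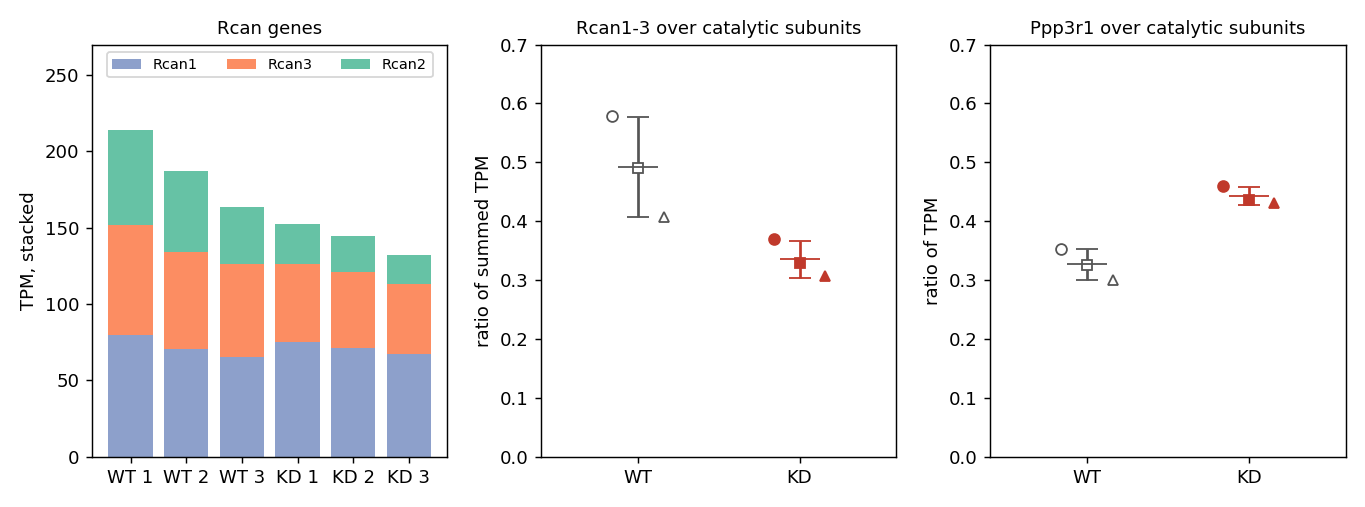
Left, TPM of the 3 Rcan genes stacked for each library. Middle and right, the summed Rcan TPM and the Ppp3r1 TPM divided by the summed TPM of the catalytic subunits, per library with mean and SD. The Rcan ratio averaged 0.492 in WT and 0.335 in KD, and the Ppp3r1 ratio 0.327 and 0.442.

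The length that the counts and TPM of a gene imply bears on whether transcripts of another length took over. For Rcan1, Rcan2, Rcan3, Ppp3ca, Ppp3cb, Ppp3r1, Nfatc3 and Ppp3cc that length differed between KD and WT by -0.52% to 1.03%. Nfatc4, the gene with the fewest counts, stood apart at 15.6%, with an implied length of 1.04, 1.07 and 1.05 times the library median in WT and 1.26, 1.26 and 1.13 times in KD. All its KD libraries were above those of WT, so its TPM and its counts compare the groups differently. The internal and upstream starts of Rcan1 were not counted separately.

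Other genes of the pathway were taken from 6 lists of 77 genes, 72 of which were tested. Of these, 10 rose and 9 fell, which is 26.4% against 24.0% of all genes tested, with a median log2 fold change of -0.015. In the remaining calcineurin and NFAT genes, 1 of 4 tested rose (25.0%, against 24.0% of all genes tested). It was Nfat5, the NFAT factor that responds to salt rather than to calcineurin, at 18.0 ± 1.44 TPM in WT and 21.9 ± 1.34 in KD, and its fitted difference was 0.24 (log2, SE 0.07, adjusted P = 0.0348). That call was lost without WT replicate 1 (0.19), WT replicate 2 (0.22), KD replicate 1 (0.24) or KD replicate 2 (0.20). Nfatc2 stood at 0.36 (SE 0.14, adjusted P = 0.0953), Ppp3cc at -0.16 (SE 0.09, adjusted P = 0.212) and Nfatc1 at -0.06 (SE 0.14, adjusted P = 0.791), and testis Ppp3r2, with 3 to 11 counts, was not tested. NFAT genes together summed to 33.2 ± 2.70 TPM in WT and 40.5 ± 2.23 in KD, of which Nfat5 was 54.1% ± 0.719 and 54.0% ± 1.70.

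The next list held genes for calmodulin, the calcium sensor that switches calcineurin on. It also held genes for proteins that bind calcineurin, NFAT or the drugs that block calcineurin. Of 11 tested, 1 rose and 2 fell (27.3%, against 24.0% of all genes tested). Calm3, a calmodulin gene, was 1360 ± 6.17 TPM in WT and 1060 ± 13.8 in KD, a difference of -0.41 (log2, SE 0.04, adjusted P = 4e-04). Calm2, which encodes the same protein, stood at 0.02 (SE 0.05, adjusted P = 0.837). Homer2, the gene of a scaffold that binds NFAT, rose by 0.47 (SE 0.08, adjusted P = 0.00392).

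Among 12 kinases that phosphorylate Rcan or NFAT proteins, or act on those kinases, 3 rose and 1 fell (33.3%, against 24.0% of all genes). Csnk1a1, a casein kinase that keeps NFAT in the cytoplasm, rose from 115 ± 1.01 to 181 ± 4.52 TPM, a difference of 0.60 (log2, SE 0.04, adjusted P = 1.7e-04). Dyrk1b rose by 0.37 (SE 0.07, adjusted P = 0.00708) and Mapk9, a JNK gene, by 0.35 (SE 0.05, adjusted P = 0.00174). Mapk8, another JNK gene, stood at -0.22 (SE 0.05, adjusted P = 0.0189), a call lost without WT replicate 2 (-0.22). The kinases Gsk3b (-0.10, SE 0.04, adjusted P = 0.107) and Dyrk1a (0.09, SE 0.05, adjusted P = 0.175) were not past the threshold. Of 13 calmodulin-dependent kinase genes and their inhibitors, 1 passed (7.69%), Camk1d at 0.39 (SE 0.07, adjusted P = 0.00426).

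Of 14 tested genes for calcium release and store-operated entry, 2 passed (14.3%, against 24.0% of all genes), both lower. They were the plasma membrane channel genes Orai2, at 35.7 ± 1.35 TPM in WT and 27.0 ± 1.21 in KD (log2 fold change -0.46, SE 0.06, adjusted P = 0.00174), and Orai3, at -0.43 (SE 0.12, adjusted P = 0.0279). The call of Orai3 was lost in 5 of the 6 fits that left out 1 library, all but that without KD replicate 3, with values from -0.44 to -0.38, and with DESeq2 on all 6 libraries (-0.43, adjusted P = 0.081). Orai1, their relative, stood at -0.005 (SE 0.10, adjusted P = 0.977).

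The last list held other proteins that calcineurin dephosphorylates, and also Inhba, which is not one of them. Of its 18 genes, 4 rose and 4 fell (44.4%, against 24.0% of all genes tested). Inhba was not past the threshold (0.18, SE 0.20, adjusted P = 0.556). Foxo1, a transcription factor, rose by 0.50 (SE 0.09, adjusted P = 0.00503), Crtc3, a CREB coactivator, by 0.34 (SE 0.08, adjusted P = 0.0137), and Mef2a, a transcription factor, by 0.32 (SE 0.05, adjusted P = 0.00321). Ppp1r1a, an inhibitor of protein phosphatase 1, stood at 216 ± 15.3 TPM in WT and 155 ± 12.5 in KD, a difference of -0.53 (log2, SE 0.08, adjusted P = 0.00276). Dnm1, a dynamin of synaptic vesicle recycling, stood at -0.25 (SE 0.05, adjusted P = 0.00819), Crtc1 at -0.19 (SE 0.05, adjusted P = 0.0212) and Mef2d at -0.17 (SE 0.04, adjusted P = 0.0197). The call of Crtc1 was lost without WT replicate 1, WT replicate 2, KD replicate 1 or KD replicate 3 (-0.20 to -0.16), and that of Mef2d without either KD replicate 1, KD replicate 2 or WT replicate 2 (-0.18 to -0.17).

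**Figure D4:**
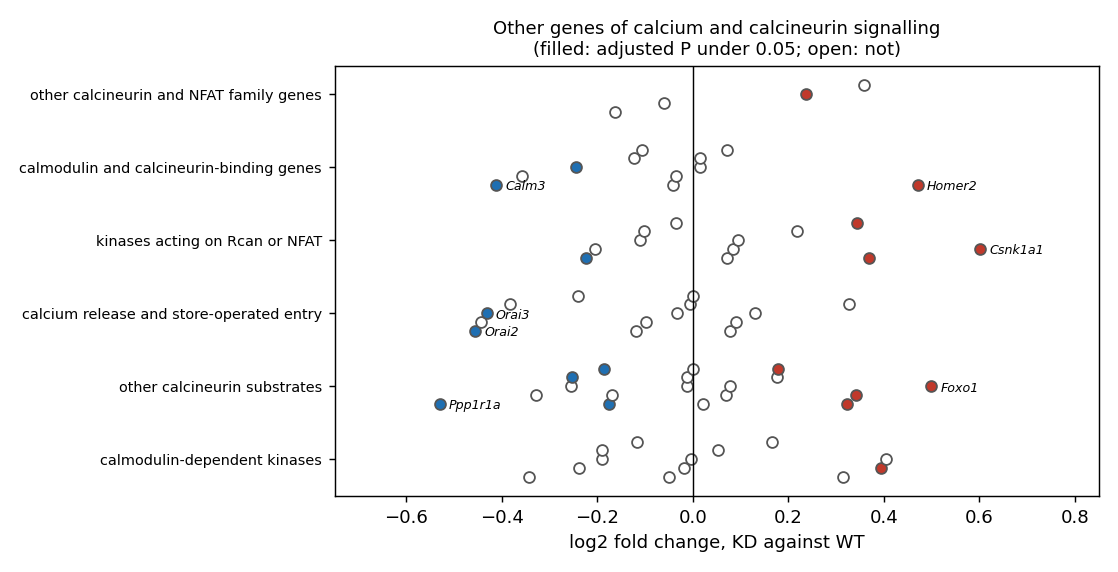
Log2 fold change in KD against WT (x axis) of the 72 tested genes of the 6 pathway lists, 1 point per gene, filled where the adjusted P was under 0.05. Both directions occur, with 10 genes higher and 9 lower, and Csnk1a1 (0.60) and Ppp1r1a (-0.53) lie farthest out among them.

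The genes whose pattern was most like that of Rcan2 were sought by Pearson correlation of log2 CPM over the 6 libraries, among 11438 tested genes with a mean of at least 5 CPM. Samd10 (r = 0.998), Rtl8a (0.996), Vat1 (0.995), Cdk20 (0.995) and St8sia3 (0.995) came first. Rcan3 came at rank 23 of the same list, with r = 0.989, while Rcan1 had r = 0.642. The other members compared ran opposite to Rcan2: Ppp3ca had r = -0.983, Ppp3r1 -0.861, Nfatc3 -0.786 and Ppp3cb -0.501. The correlation ignores size: Samd10 had a log2 fold change of -0.52, and St8sia3 one of -0.12 (adjusted P = 0.0868). The 6 points share the difference between the groups and the pairs, so these values are a description of likeness only.

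Cell type markers moved beside these genes, and in bulk RNA fewer cells of a type and less RNA per cell cannot be told apart. Of 6 tested intermediate progenitor markers, 4 rose (66.7%, against 24.0% of all genes tested). The summed level of the intermediate progenitor markers was 65.7 to 87.4 TPM in WT and 136 to 161 in KD. Eomes, their defining gene, was 6.52 ± 2.84 TPM in WT and 20.1 ± 7.13 in KD (log2 fold change 1.57, SE 0.31, adjusted P = 0.00813). Of 9 radial glia markers, 2 rose (22.2%, against 24.0% of all genes), Hes1 at 0.49 (SE 0.15, adjusted P = 0.0445) and Pax6 at 0.61 (SE 0.15, adjusted P = 0.0185), the latter a call lost without WT replicate 2 (0.51). The radial glia sum was 3078 to 3461 TPM in WT and 3517 to 3793 in KD, most of it Fabp7, which was not past the threshold (0.05, SE 0.06, adjusted P = 0.601). Of 8 tested oligodendrocyte lineage and astrocyte markers, 2 fell (25.0%, against 24.0% of all genes). They were Olig1 at -0.54 (SE 0.11, adjusted P = 0.0105) and Cspg4, also listed for pericytes, at -0.54 (SE 0.11, adjusted P = 0.00994). The 8 markers had a median log2 fold change of -0.295, and 1 of them was above 0. Their list summed to 366 to 464 TPM in WT and 324 to 381 in KD. Olig2 stood at -0.17 (SE 0.12, adjusted P = 0.343, and adjusted P = 0.0192 with the replicate block).

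Neuron markers summed to 5353 to 6074 TPM in WT and 5257 to 6070 in KD. Of these 12 markers 2 were higher and 2 lower (33.3%, against 24.0% of all genes tested). Interneuron markers summed to 4129 to 6984 and 3720 to 5496 TPM, with 2 of 8 higher (25.0%). These were Dlx2 at 1.23 (SE 0.14, adjusted P = 9.59e-04) and Npy at 0.39 (SE 0.12, adjusted P = 0.0476). Gad1 stood at -0.25 (SE 0.18, adjusted P = 0.351, and adjusted P = 0.00165 with the replicate block). Sst, which held most of the interneuron sum, averaged 4085 TPM in WT and 2933 in KD. It was not past the threshold in the fit without pairing (-0.55, SE 0.23, adjusted P = 0.108). In each same-numbered pair, though, its CPM was lower in KD (852 and 537, 608 and 438, 452 and 328). Marker sums of microglia (5.24 to 9.49 TPM in WT, 4.67 to 7.64 in KD, with C1qa at 1.76 and 1.22 TPM), of endothelial cells and pericytes (7.16 to 8.55 and 7.19 to 8.16, with Pecam1 at 0.51 and 0.58) and of meningeal fibroblasts (3.11 to 6.05 and 3.16 to 5.71, with Col1a1 at 0.453 and 0.31) were low in both groups. Of 4 tested endothelial and pericyte markers, 1 rose and 1 fell (50.0%, against 24.0% of all genes tested). These were Pdgfrb at 0.72 (log2, SE 0.20, adjusted P = 0.0318) and Cspg4 at -0.54 (SE 0.11, adjusted P = 0.00994), so their sum hides opposite changes. None of the listed markers was at 0 in all 6 libraries. The part of cell composition in the values of the calcineurin, Rcan and NFAT genes was not tested.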

How the data were processed

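RNA-seq of 3 WT and 3 KD libraries was used, grouped and numbered by sample title; the data columns called Ctrl were assigned to the WT title of the same number. Trizol RNA was sequenced on DNBSEQ. The submitters' processing notes name HISAT2 2.2.1, Bowtie2 2.4.5, RSEM 1.3.1 and GRCm38 (mm10). The deposited table gives an estimated count per gene, 89.3% to 89.9% of them whole, which includes every value of the 8 genes. The authors' TPM, per transcript length, are scaled to 1000000 per library. A further 12 columns (FPKM and averages) were not used.

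Counts were rounded and fitted with edgeR 4.0.16 (R 4.3.3): filterByExpr with minimum count 10, TMM scaling, quasi-likelihood F-test, Benjamini-Hochberg adjustment over 13669 genes, threshold 0.05. The paper reports genes up and down in this knockdown, but its methods name neither the test nor the threshold behind them. SE was obtained from the size of the log2 fold change over the root of its F statistic. The between-library coefficient of variation was 7.7%. On simulated data the fit was checked first. No replicates agreed within sampling noise (chi-square per degree of freedom 4.57 to 9.05).

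The members and gene lists were chosen with earlier results of these data known. Genes named are the 8, listed pathway genes past the threshold, all other calcineurin and NFAT genes, the 5 most like Rcan2 and 10 defining markers. A few more (Calm2, Gsk3b, Dyrk1a, Orai1, Wdr92, Hes1, Fabp7, Dlx2, Npy, Sst, Olig1, Cspg4 and Pdgfrb) were named after their values were seen. Some listed genes past the threshold are counted but not reported here by name.

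Same-numbered libraries deviated together (correlations over genes of 0.35, 0.32 and 0.18, against -0.28 to -0.02 for different numbers). Deviations were taken from the mean of each group, so positive values for same numbers push those for different numbers below them. The numbers were taken to pair the libraries on the same-number values, the third of which is the weakest. What a number marks is not given in the labels beyond separate replicate experiments. The main fit left this pairing out, and its SE, adjusted P and calls are those given unless a replicate block is named. A fit with that block, other scalings and filters, DESeq2 1.42.0, limma 3.58.1 (voom, and trend on log2(TPM + 1)) and fits without each library, or without both replicate 2 libraries, were alternatives. Positions and exon overlaps come from GENCODE M21, and sequences from RefSeq (GRCm38.p6).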

Additional observations from a re-analysis of the deposited data

How the results depend on the processing

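The members were chosen with the fall of Rcan2 already known, so their calls across these fits are a description and test nothing. Ppp3r1 was past the threshold under all 16 alternatives (log2 fold change 0.50 to 0.59). The range over alternatives was -1.38 to -1.02 for Rcan2 and -0.54 to -0.41 for Rcan3. With the second pair left out they stood at -1.16 and -0.50, and neither was past the threshold. Ppp3ca (0.20) and Nfatc3 (0.32) were not past it there either, besides the single libraries named above. Nfatc4 then stood at 0.005, and at 0.067 without WT replicate 3 and 0.028 without KD replicate 2. Leaving out 1 library gave 0.18 to 0.29 for Ppp3ca, 0.28 to 0.43 for Nfatc3, -0.27 to 0.067 for Nfatc4 and -0.14 to 0.016 for Rcan1 (highest without WT replicate 1). The cause was not tested.

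In the fit with a replicate block, no call of the 8 genes changed (Rcan2 -1.18, Rcan3 -0.48), 2539 genes were higher and 2470 lower, 18 pathway genes were lower, 20 marker genes were higher and 8 lower, and the calls of Gad1 (-0.24, adjusted P = 0.00165) and Olig2 (-0.17, adjusted P = 0.0192) were gained. With the second pair left out, 135 genes were higher and 93 lower by edgeR. Of the 8 genes, 1 was higher and 0 lower. Of pathway genes, 1 was higher and 1 lower (8 and 11 at an unadjusted P of 0.05). Of marker genes, 3 were higher and 0 lower (11 and 3 at an unadjusted P of 0.05). No other tool was run on those 4 libraries. Leaving out 1 library gave 779 to 1612 genes higher and 797 to 1583 lower (fewest without WT replicate 2), 1 to 3 of the 8 higher (1 without WT replicate 2 or KD replicate 2), 4 to 9 pathway genes lower, 6 to 12 marker genes higher and 2 to 5 lower. The split of genes higher and lower was 1888 and 1375 by total counts, 1392 and 1845 by upper quartile, and 2076 and 1072 with limma on TPM; the median of all genes moved by at most 0.05.

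With limma on TPM the calls of Crtc1 (-0.135), Mef2d (-0.122) and Mapk8 (-0.166) were lost. Of single genes not past the threshold, Nfatc1 changed sign without WT replicate 2 (0.028) and with the second pair left out (0.067), Tubb3 without WT replicate 3 (0.025) or KD replicate 1 (0.02), and Pecam1 without the same libraries (-0.066 and -0.094). Without 1 library Nfatc1 ran from -0.159 to 0.028 and Pecam1 from -0.094 to 0.39. From CPM in place of TPM, the change of share was 8.49 percentage points for Rcan1 (11.6 from TPM), -0.64 for Ppp3cc (-1.18) and -0.36 for Nfatc4 (-1.52).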
